A study of Homo sapiens with 4 samples.

Results

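The genes described here encode 10 surface proteins of myeloma cells that antibodies, antibody-drug conjugates, bispecific antibodies or engineered T cells have been directed at, or that mark plasma cells in the clinic: CD38, TNFRSF17 (the BCMA protein), GPRC5D, FCRL5, SLAMF7, SDC1 (CD138), CD27, CD28, LY9 (CD229) and CD48. They were taken by symbol from the 78932 gene rows of the deposited table, and each of the 10 symbols matched 1 row. The cells were RPMI 8226, an established human multiple myeloma line, transfected with a locked nucleic acid (LNA) antisense oligonucleotide, a short modified DNA strand that lowers the RNA it pairs with. In 2 libraries the cells had received a control LNA, and in the other 2 an LNA against the long noncoding RNA LINC01432, at 50 nM; RNA was taken after 72 h. No separate dose is given for the control LNA, both groups were transfected, no untransfected cells are among the samples, and the titles name a single LNA for each group, so the effect of the target and of that oligonucleotide cannot be told apart.

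Plasma cells carry few of the receptors of earlier B cells and instead display proteins tied to survival in the marrow. BCMA, a receptor of the TNF receptor superfamily, binds APRIL and BAFF and maintains long-lived plasma cells, and gamma-secretase sheds it from the membrane. CD38 is an ectoenzyme that consumes NAD and is the target of daratumumab; it is known to be inducible by interferons and by retinoic acid. GPRC5D is an orphan G protein-coupled receptor, SDC1 a heparan sulfate proteoglycan, CD27 and CD28 costimulatory receptors better known from T cells, FCRL5 an Fc receptor-like protein, and SLAMF7, LY9 and CD48 receptors of the SLAM family.

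Of the 10 genes, CD38 and CD48 rose with the LINC01432 LNA, TNFRSF17, GPRC5D and CD28 fell, SDC1, SLAMF7, LY9 and FCRL5 did not pass the test, and CD27 had too few counts to be tested. Changed means an adjusted p under 0.05 (edgeR quasi-likelihood test, Benjamini-Hochberg over all 18680 genes tested). Of all genes tested, 11.9% passed, 7.50% upward and 4.37% downward; of the 10 genes, 9 were tested, 2 passed upward and 3 downward. Both libraries of 1 group lay beyond both of the other for 6 of the 9 (the 5 called genes and SLAMF7), as they did for 54.1% of all genes tested. The median log2 fold change of those 9 was -0.14, against 0.01 over all genes tested. With 2 libraries a group, an exact permutation test of 1 gene cannot go below p = 0.333, so the calls lean on the variance that edgeR estimates over many genes together. The labels do not say whether libraries came from separate cultures, so p-values speak to the variation among these 4 libraries, part or all of which may be technical. In RNA from whole cultures, fewer cells that carry a transcript and less of it per cell cannot be told apart.

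The stretches just upstream of the start sites of CD38, the gene with the clearest rise, and GPRC5D, a gene that fell, are shown because the data give opposite directions for them. Promoters of 7 of the 10 genes were matched in RefSeq (GRCh38.p14): CD38, GPRC5D, FCRL5, SDC1, CD27, CD28 and CD48; TNFRSF17, SLAMF7 and LY9 are named only. The 250 bases before each RefSeq start were searched on both strands for 4 motifs, an interferon-response-like GAAANNGAAA, a STAT-like TTCNNNGAA, an ETS-IRF-like GGAANNGAAA and a kB-like GGGNNNTTCC. The first and the third overlap in their letters. Of 35116 RefSeq promoters of that length, 3.02%, 6.57%, 2.41% and 5.67% held them. Among the 7 genes the ETS-IRF-like letters were found once each at CD38 and CD28, and the other 3 motifs were not found in these windows. The CD38 match starts 43 bases before the RefSeq start and lies inside the gene as GENCODE 29 draws it, as does the CD28 match, read on the opposite strand. The lines give, in order, CD38 at chr4:15778078-15778274 (plus strand), the 30 bases that follow it at chr4:15778275-15778304, CD28 at chr2:203706615-203706638 (plus strand) and GPRC5D at chr12:12952171-12952420 (minus strand, read from the gene's side). Capitals mark the ETS-IRF-like match, and a match of letters is not a binding site.
CD38 upstream: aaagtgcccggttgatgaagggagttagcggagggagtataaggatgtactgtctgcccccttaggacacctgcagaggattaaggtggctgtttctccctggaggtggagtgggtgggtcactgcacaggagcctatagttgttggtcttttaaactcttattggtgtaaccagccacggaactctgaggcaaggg
CD38 match: gttgggggtgGGAAGGGAAAcagagaaaag
CD28 match: caggtgcgtcTTTCAGTTCCcctc
GPRC5D upstream: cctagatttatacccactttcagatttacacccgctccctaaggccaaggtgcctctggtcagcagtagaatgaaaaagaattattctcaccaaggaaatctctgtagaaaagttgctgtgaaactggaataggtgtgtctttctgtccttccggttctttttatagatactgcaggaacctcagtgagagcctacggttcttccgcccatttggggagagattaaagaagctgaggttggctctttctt

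The libraries held 20873393 to 29161298 gene counts. The targeted RNA, LINC01432, had 598 and 440 counts with the control LNA and 193 and 250 counts with its own LNA, which was 0.492 times the control level (edgeR adjusted p = 0.000228). All 12 plasma cell markers passed the filter on low counts, 1 rose (CD38) and 2 fell (TNFRSF17 and XBP1, a secretory transcription factor, at a log2 fold change of -0.35 with edgeR adjusted p = 0.0159, not called without either control library); IRF4, the transcription factor myeloma cells depend on, stood at 768 to 804 CPM (counts relative to the size of the library after TMM scaling). Markers of other blood cells were partly present, and T, NK and myeloid cells carry some of the 10 genes too. Of 15 T and NK cell markers, 5 were tested: CD8B stood at 192 to 255 CPM, CD247 had 54 to 87 counts, CD7 68 to 114, CD8A 21 to 44 and CD3E 7 to 15, while CD3D, CD3G and TRAC had at most 2 counts in any library. Their sum, mostly CD8B, was 258 to 262 CPM in control and 200 to 218 CPM in LINC01432 LNA libraries. Of 10 myeloid markers, 4 were tested: CD33 had 754 to 1106 counts, CD14 52 to 91, S100A9 36 to 61 and CSF1R 25 to 32, while LYZ and S100A8 were at 0. Of 7 mature B cell markers, 4 were tested: CR2 had 288 to 544 counts, FCER2 70 to 155, MS4A1 59 to 120 and PAX5 29 to 46, while CD22 was at 0. The groups did not overlap for these 4, as for 54.1% of all genes tested. CR2, FCER2 and MS4A1 were lower and PAX5 higher with the LINC01432 LNA, and only CR2 was called. The 12 plasma cell markers summed to 3614 and 3849 CPM in control and 3187 and 3651 CPM in LINC01432 LNA libraries. The 10 myeloid markers summed to 40.3 to 42.9 and 41.1 to 47.9 CPM, the 7 mature B cell markers to at most 29.1 and to 21.5 to 23.4 CPM, and the 8 epithelial and stromal markers to 118 to 122 and 105 to 106 CPM. Of these lists, CD8B (log2 fold change -0.34, edgeR adjusted p = 0.0179) and CR2 (-0.40, 0.0234) fell and COL1A1 rose (0.86, 0.0272). CD8B and CR2 were not called without either control library, and CR2 also not with DESeq2. COL1A1 was not called with DESeq2, with GC correction or without control library 1. The part of such markers in the results was not tested.

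The 10 genes differed widely in level. Per kilobase of exon (CPM divided by the length of all annotated exons of the gene), SDC1 was highest with 125 ± 6.94 in control libraries (SD, n = 2), followed by TNFRSF17 with 78.9 ± 1.60, CD28 with 42.3 ± 0.0455 and GPRC5D with 31.4 ± 0.509. CD38 came next with 12.3 ± 0.797 and was followed by SLAMF7 with 4.19 ± 0.321, LY9 with 1.61 ± 0.103 and CD48 with 0.366 ± 0.0441. CD27 and FCRL5 were at the bottom with 0.0698 ± 0.0644 and 0.0346 ± 0.00206, and their ranges overlapped, whereas each other neighbouring pair in this order was separate in the control libraries. The same order held with the LINC01432 LNA, but GPRC5D and CD38 were then no longer separate: their values were 20.1 and 23.4 for GPRC5D and 19.1 and 21.5 for CD38, which overlapped. A gene whose annotated exons include rarely used ones is set too low on this scale. The summed level of all 10 genes was 881 and 921 CPM in the control and 772 and 882 CPM in the LINC01432 LNA libraries.

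**Figure D1:**
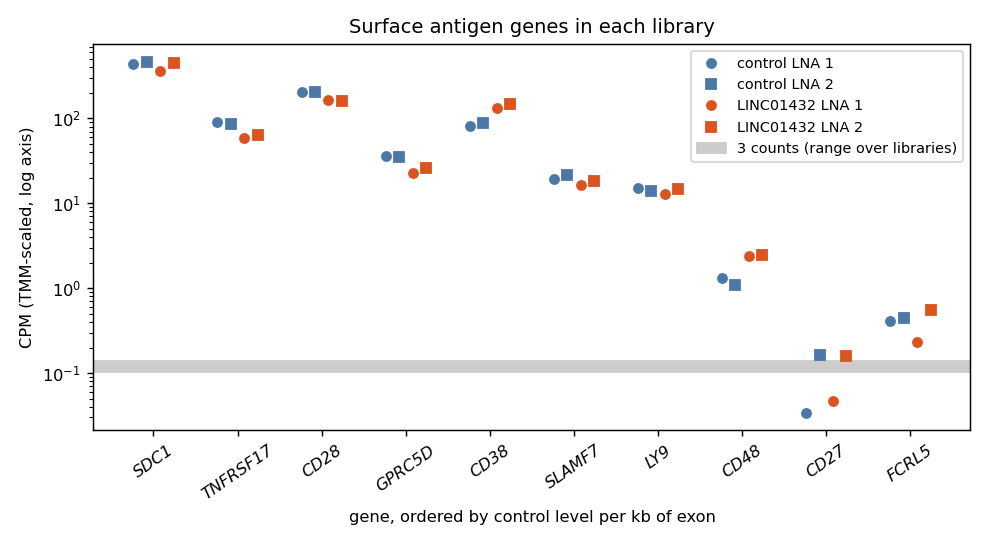
Level of each of the 10 genes in each library, in CPM on a log axis; circles and squares are libraries 1 and 2 of a group, and the grey band is the CPM worth of 3 counts. CD38 and CD48 are higher and TNFRSF17, GPRC5D and CD28 lower in both LINC01432 LNA libraries, while CD27 sits at the band.

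CD38 (ENSG00000004468, chr4:15778275-15853230, GRCh38), the NAD-consuming ectoenzyme, rose. It stood at 80.6 and 88.3 CPM in the control libraries and at 131 and 148 CPM in the LINC01432 LNA libraries, so both treated libraries lay above both controls. The counts behind these levels were 2351, 2171, 2817 and 3737. The group levels were 84.4 ± 5.46 and 139 ± 11.8 CPM (SD, n = 2), a 1.65-fold rise, with a log2 fold change of 0.72 (standard error 0.09, edgeR adjusted p = 0.000434). The call was kept under each of the 14 alternatives run, with a log2 fold change of 0.62 to 0.85. Among the 8 other genes tested of the list of surface and intracellular enzymes of NAD and adenosine, only NAMPT, which makes the NAD precursor NMN, was called: 223 and 230 CPM became 278 and 272 CPM (log2 fold change 0.28, edgeR adjusted p = 0.0380), and it was not called without either control library. BST1, the paralog of CD38, had 0 counts in every library. NT5E (CD73), which makes adenosine, stood at 4.69 and 5.08 CPM against 4.42 and 5.10 CPM, and PARP1, a nuclear NAD consumer, at 1308 and 1330 against 1130 and 1294 CPM; neither was called.

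TNFRSF17 (ENSG00000048462, chr16:11965107-11968068), the BCMA gene, fell. Its level was 89.5 and 86.9 CPM in the control libraries and 58.6 and 63.3 CPM with the LINC01432 LNA. The groups did not overlap, and the spread within each was small beside the gap. The level was 0.691 times the control (log2 fold change -0.53, standard error 0.08, edgeR adjusted p = 0.00158), and the call was kept in each of the 14 alternatives, at -0.61 to -0.42. The other genes of the BCMA axis did not pass the test, 0 of 4 in either direction. TNFRSF13B, which encodes the related receptor TACI, was measured at 94.0 and 99.3 CPM and then 99.8 and 127 CPM (log2 fold change 0.23, 95% interval -0.00 to 0.46, adjusted p = 0.198). Its value rested on the treated libraries: it was 0.38 without LINC01432 LNA library 1 and 0.03 without library 2. Of the ligands, TNFSF13 (APRIL) stood at 6.78 and 7.12 CPM and then 8.46 and 8.70 CPM, though 55.5% of its exonic bases are shared with other genes. TNFSF13B (BAFF) had 6 and 11 counts and then 17 and 19 (log2 fold change 1.26, adjusted p = 0.104), close to the limit of detection. Of the 5 gamma-secretase subunit genes tested, 0 passed. Those furthest from 0 with lower values were PSENEN, at a log2 fold change of -0.39, and NCSTN, at -0.23 (edgeR adjusted p = 0.0747 and 0.0847). PSEN2 went the other way, at 0.33 with 51 to 61 counts (edgeR adjusted p = 0.418). Without LINC01432 LNA library 2 PSENEN and NCSTN had -0.60 and -0.29, and NCSTN had -0.21 without library 1. PSENEN was called with no filter on low counts (-0.41, edgeR adjusted p = 0.0373), and 56.5% of its exonic bases are shared with other genes.

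GPRC5D (ENSG00000111291, chr12:12940775-12952147), whose upstream stretch is shown above, fell. It stood at 35.7 and 34.9 CPM in control libraries against 22.6 and 26.2 CPM with the LINC01432 LNA, with no overlap. The ratio of the group levels was 0.692 (log2 fold change -0.53, standard error 0.09, edgeR adjusted p = 0.00407). All 14 alternatives called it, at -0.66 to -0.45. Its family members were near the detection limit: GPRC5A and GPRC5B had at most 7 counts in a library, and GPRC5C, with 14 to 19 counts, was not called (adjusted p = 0.632).

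CD28 (ENSG00000178562, chr2:203706475-203738912), the T cell costimulatory receptor that myeloma cells can also carry, was abundant and fell. It stood at 207 CPM in both control libraries and at 163 and 159 CPM with the LINC01432 LNA, so the groups were separate. That is 0.778 times the control level (log2 fold change -0.36, standard error 0.08, edgeR adjusted p = 0.0104). Without control library 1 or 2 the log2 fold change was -0.38 in both cases but the gene was not called (adjusted p = 0.277 and 0.265). CD86, the gene of a CD28 ligand, moved in the same direction, from 24.4 and 23.2 CPM to 17.3 and 15.7 CPM (log2 fold change -0.53, edgeR adjusted p = 0.00449; 0.0504 without control library 1). The other ligand gene, CD80, had 1 to 6 counts and was not tested, and CTLA4, the inhibitory receptor for the same ligands, had at most 2. Signalling partners of CD28 were not called: PIK3R1, GRB2 and VAV1 had log2 fold changes of 0.01, -0.25 and -0.04.

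CD27 (ENSG00000139193, chr12:6444867-6451718), the receptor that plasma cells of healthy marrow carry and myeloma cells often lose, was at the detection limit. It had 1 and 4 counts in the control and 1 and 4 counts in the LINC01432 LNA libraries, around the 3 counts taken as the floor, so no change was detectable at this depth. Moreover, 37.0% of its exonic bases are shared with the antisense gene CD27-AS1, which had 22 to 31 counts a library, and the strand setting of the counting is not given. Its ligand was present and rose: CD70, a TNF family member, went from 22.2 and 26.5 CPM to 51.9 and 67.6 CPM. That was 2.46-fold higher (log2 fold change 1.30, standard error 0.13, edgeR adjusted p = 0.000113), with the groups separate and the call kept in all 14 alternatives. SIVA1, whose protein binds the tail of CD27, rose 1.54-fold, from 67.9 and 73.6 to 101 and 117 CPM (edgeR adjusted p = 0.00123). Of the 9 genes tested in the list of CD27 and CD28 partners other than these receptors, 3 rose and 1 fell. Over all genes tested, 7.50% rose and 4.37% fell. The third partner that rose was ICOSLG, the ICOS ligand (log2 fold change 0.51, edgeR adjusted p = 0.0310). It was not called with GC correction (0.39, edgeR adjusted p = 0.0864) or without either control library.

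**Figure D2:**
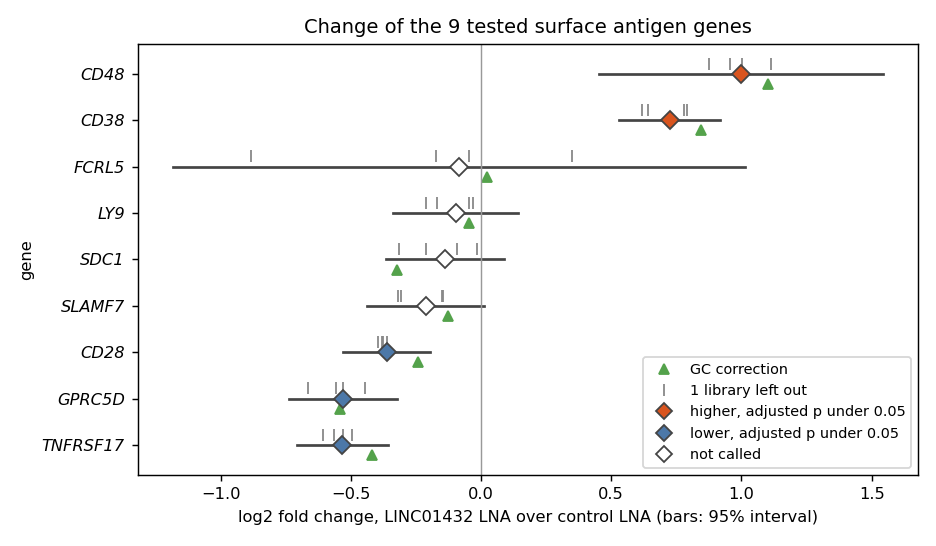
Log2 fold change of the 9 tested genes with its 95% interval (diamonds and bars), after GC correction (triangles) and with each library left out (ticks). CD48 and CD38 lie right of 0 and CD28, GPRC5D and TNFRSF17 left of it in every version; the interval of FCRL5 runs from -1.18 to 1.01.

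The SLAM genes of the set lie next to each other on chromosome 1, CD48 at chr1:160678746-160711851, SLAMF7 at chr1:160739057-160754821 and LY9 at chr1:160796074-160828261, a span of 149.5 kb. CD48 (ENSG00000117091), a lipid-anchored ligand of CD244, rose from a low level. It had 38 and 27 counts with the control LNA and 51 and 62 with the LINC01432 LNA, or 1.30 and 1.10 against 2.37 and 2.45 CPM. The groups did not overlap, and the level was 2.00-fold higher (log2 fold change 1.00, standard error 0.25, edgeR adjusted p = 0.0240). The call was lost with DESeq2 (adjusted p = 0.120) and without control library 1 (0.0732) or 2 (0.149). An antisense gene shares 29.8% of the exonic bases of CD48 and had 2 to 4 counts a library.

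SLAMF7 (ENSG00000026751), the target of elotuzumab, was measured at 19.2 and 21.3 CPM in control and at 16.4 and 18.4 CPM in LINC01432 LNA libraries. All treated values lay below the control values, but the difference did not pass (log2 fold change -0.21, 95% interval -0.44 to 0.01, edgeR adjusted p = 0.224). No alternative with every library kept called it, and without LINC01432 LNA library 2 its log2 fold change was -0.32. LY9 (ENSG00000122224), a receptor that binds itself on neighbouring cells, stood at 15.3 and 14.0 CPM and then at 12.8 and 14.5 CPM, and these ranges overlapped (log2 fold change -0.10, 95% interval -0.34 to 0.14, adjusted p = 0.648). The intervals of SLAMF7 and LY9 end below the 0.45 at which that of CD48 starts, although the difference between the genes was not tested. The other SLAM receptors, SLAMF1, CD244, CD84, SLAMF6, SLAMF8 and SLAMF9, and the adaptor genes SH2D1A and SH2D1B had at most 2 counts in a library. Phosphatases that act on SLAM receptor tails were expressed: PTPN11 (SHP-2) fell from 170 and 163 to 111 and 98.0 CPM (log2 fold change -0.67, edgeR adjusted p = 0.000591, called in all alternatives), and INPP5D (SHIP-1) had a log2 fold change of -0.31 (adjusted p = 0.0433) that was not called without either control library. PTPN6 (SHP-1) did not pass (-0.26, edgeR adjusted p = 0.149) but was called lower after GC correction (-0.50, adjusted p = 0.00412). Without LINC01432 LNA library 2 it had -0.46.

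Among 13 tested neighbours of this stretch of chromosome 1, 2 rose and 1 fell, against 7.50% and 4.37% of all genes tested. ARHGAP30, a GTPase-activating protein, and PFDN2, a prefoldin subunit, had log2 fold changes of 0.44 and 0.42 (edgeR adjusted p = 0.0119 and 0.0203), and COPA, a coat protein of Golgi vesicles, had -0.42 (adjusted p = 0.00554). None of these 3 was called without control library 1 or without control library 2. The neighbour F11R, an adhesion molecule, did not pass (-0.29, edgeR adjusted p = 0.0821) and had -0.43 without LINC01432 LNA library 2.

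SDC1 (ENSG00000115884, chr2:20200797-20225433), the CD138 antigen used to isolate plasma cells, was the most abundant of the 10 genes. Its level was 432 and 467 CPM in control and 365 and 450 CPM in LINC01432 LNA libraries. The second treated library lay between the controls, and the difference did not pass (log2 fold change -0.14, 95% interval -0.37 to 0.09, edgeR adjusted p = 0.452). Without LINC01432 LNA library 2 the gene was called as lower (-0.32, adjusted p = 7.27e-08), and so it was after GC correction (-0.32, adjusted p = 0.0282), a setting in which 10.2% of all genes passed. Of 18 other genes for syndecans and heparan sulfate, 4 rose and 2 fell, against 7.50% and 4.37% of all genes tested. SDC3 rose from 4.15 and 4.27 to 6.93 and 7.27 CPM (1.69-fold, edgeR adjusted p = 0.00608) but was not called without control library 1. SDC4 rose from 10 and 5 counts to 18 and 24 (edgeR adjusted p = 0.0284). The SDC4 call was lost with DESeq2 (adjusted p = 0.158), without either control library and without LINC01432 LNA library 2. B3GALT6 and B4GALT7, which build the linker on which heparan sulfate grows, rose with log2 fold changes of 0.48 and 0.31 (adjusted p = 0.00900 and 0.0478), which were 0.08 and 0.11 after GC correction and then not called. SULF2, a sulfatase that trims heparan sulfate outside the cell, had -0.38 (adjusted p = 0.0111), and EXT1, a subunit of the polymerase, -0.53 (adjusted p = 0.0197); neither was called without control library 1 or 2. HPSE (heparanase), which cleaves the chains, did not pass (0.45, adjusted p = 0.0985) but was called higher after GC correction (0.56, adjusted p = 0.0482).

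FCRL5 (ENSG00000143297, chr1:157513377-157552520) had 12 and 11 counts in the control and 5 and 14 in the LINC01432 LNA libraries. The ranges overlapped, and the interval of its log2 fold change ran from -1.18 to 1.01 (edgeR adjusted p = 0.945), so that no change within that interval was detectable at this depth. Of the other Fc receptor-like genes, FCRL1, FCRL2, FCRL3, FCRL4 and FCRL6 had at most 15 counts in a library. FCRLA, an intracellular member, had 152 to 303 counts, and FCRLB had 60 to 74; neither was called (adjusted p = 0.107 and 0.448).

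Ratios of counts within a library do not depend on how libraries are scaled. They restate the changes given above for the same genes, which were chosen with earlier results of these data known. They are therefore no separate support for those changes. For each TNFRSF17 count there were 0.900 and 1.02 CD38 counts in control libraries and 2.23 and 2.33 after the LINC01432 LNA, a mean ratio 2.38 times as high. Against GPRC5D the CD38 ratio went from 2.25 and 2.53 to 5.80 and 5.63. The ratio of the 2 genes that fell most among the 10 overlapped between groups: there were 2.50 and 2.49 counts of TNFRSF17 for each of GPRC5D in control and 2.59 and 2.41 in LINC01432 LNA libraries. TNFRSF17 counts relative to those of the TACI gene were 0.952 and 0.876 and then 0.588 and 0.499. Relative to those of SDC1 they were 0.207 and 0.186 and then 0.161 and 0.141. Neither pair of ranges overlapped. For single genes, the levels of 54.1% of all genes tested did not overlap, and no such share was computed for ratios of 2 genes. The ratio of CD28 to its ligand gene CD86 was 8.49 and 8.91 and then 9.39 and 10.2. The ratios were not tested one by one, since 2 against 2 libraries cannot reach p = 0.05 by permutation.

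**Figure D3:**
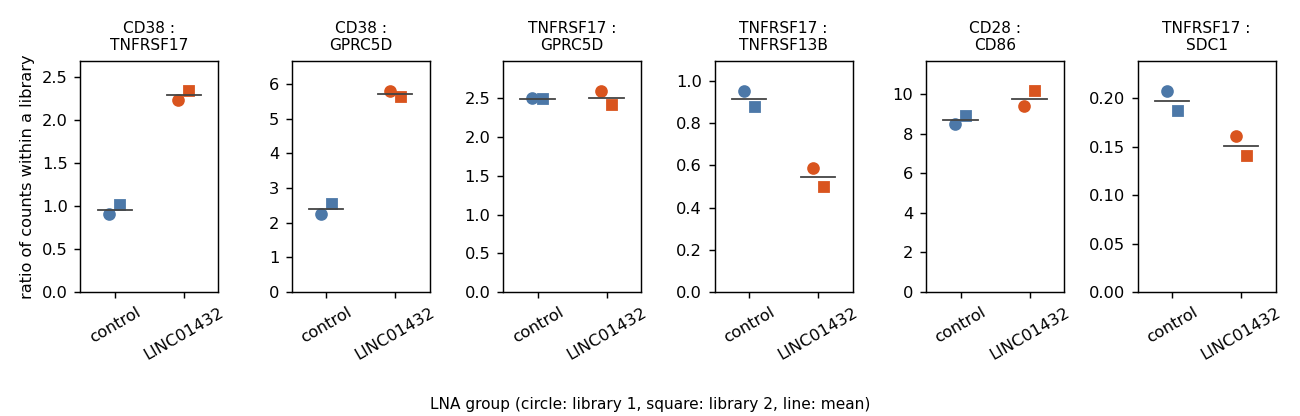
Ratio of the counts of gene pairs within each library; circles and squares are libraries 1 and 2, lines the group means, and each axis starts at 0. CD38 to TNFRSF17 is at most 1.02 in control and at least 2.23 in LINC01432 LNA libraries. CD38 to GPRC5D is at most 2.53 in control and at least 5.63 in LINC01432 LNA libraries. TNFRSF17 to GPRC5D stays between 2.41 and 2.59 in all 4 libraries.

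Complement regulators and phagocytosis signals bear on how antibody-coated cells are cleared. Of 6 such genes tested, 0 rose and 1 fell, against 7.50% and 4.37% of all genes tested. CD46, a complement regulator, had a log2 fold change of -0.26 (edgeR adjusted p = 0.0472), which was -0.07 after GC correction. CD46 was not called in 8 of 14 alternatives, among them GC correction, DESeq2 and either control library left out. CD55 and CD59, which also block complement, had 0.16 and -0.20 and did not pass (adjusted p = 0.316 and 0.228). CD55 was called higher after GC correction (0.31, edgeR adjusted p = 0.0398), and CD59 had -0.34 without LINC01432 LNA library 2. CD47, which signals against phagocytosis, was at 139 and 138 CPM in control and 128 CPM in both LINC01432 LNA libraries (adjusted p = 0.385).

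Of 33 tested genes for other surface antigens of B and plasma cells, 6 rose and 1 fell (median of the list 0.10 on the log2 scale). Over all genes tested, 7.50% rose and 4.37% fell. Besides CD70, the genes that rose included SLC3A2 (CD98, 2.44-fold), CCR10, a chemokine receptor of plasma cells, from 0.685 and 0.691 to 1.95 and 1.86 CPM (2.75-fold, adjusted p = 0.00759), and CD74, the class II invariant chain. CD74 stood at 153 and 182 CPM and then at 220 and 450 CPM, so its treated libraries differed more from each other than its lower treated library did from the controls, and DESeq2 did not call it (adjusted p = 0.302). Without LINC01432 LNA library 2 its log2 fold change was 0.38 in place of 1.00. ICAM1, an adhesion molecule, had a log2 fold change of 0.48 (adjusted p = 0.0219), and FCGR2B, an inhibitory Fc receptor, rose from 6 and 2 to 16 and 13 counts (adjusted p = 0.0355); neither was called without control library 1 or 2. NCAM1 (CD56) was the 1 gene that fell, to 0.395 times its control level. Across all lists of related genes, 99 genes outside the 10 were tested, 15 rose and 8 fell, against 7.50% and 4.37% of all genes tested. The lists were chosen with earlier results of these data known. Most of these 23 were not called without at least 1 of the control libraries. In every alternative 6 were called (CCR10, CD70, NCAM1, PTPN11, SIVA1 and SLC3A2).

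**Figure D4:**
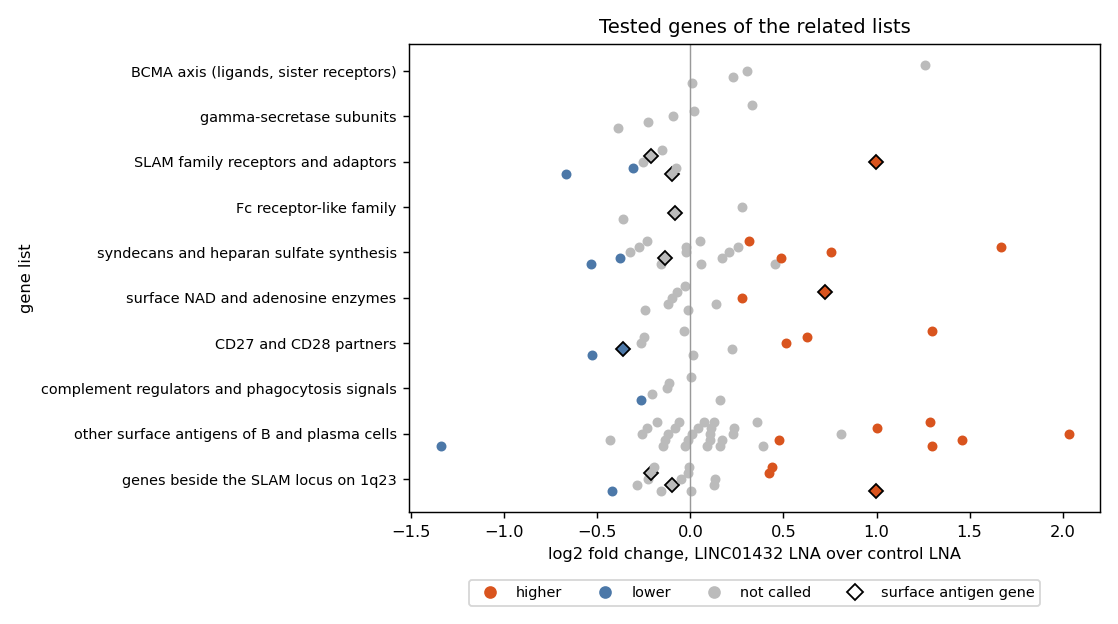
Log2 fold change of every tested gene in the lists of related genes, 1 row a list; colours give the call and diamonds the surface antigen genes described here. Most points are grey (not called) and lie within 0.5 of 0.

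Base composition moved with the comparison. Over all tested genes with a known GC content of their exons, those in the lowest of 10 equal classes by GC had a median of -0.14 on the log2 scale and those in the highest 0.37. The 9 tested surface antigen genes lay between 42.6% (CD38 and CD28) and 60.1% GC (SDC1). CD38 and TNFRSF17, with 42.6% and 43.5%, are in the same class, whose median was -0.08, and changed in opposite directions. After a correction that removes the trend from each library, CD38 had a log2 fold change of 0.85, CD48 1.10, TNFRSF17 -0.42, CD28 -0.24 and GPRC5D -0.54, and all 5 were called.

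**Figure D5:**
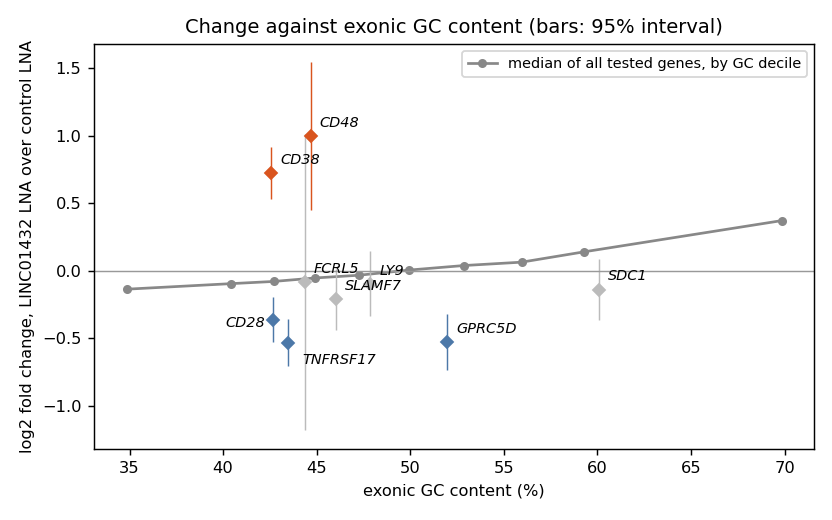
Log2 fold change (with 95% interval) of the 9 tested genes against the GC content of their exons in percent; the grey line joins the medians of all tested genes in 10 classes by GC. CD38 and CD48 lie above the line and TNFRSF17, CD28 and GPRC5D below it. SDC1, SLAMF7, LY9 and FCRL5, which were not called, lie below it as well.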

How the data were processed

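RNA-seq of RPMI 8226 cells gave whole-number counts per gene, not normalized, as deposited by the authors in 1 table of 4 libraries. The build was GRCh38 and the tools bcl2fastq, Salmon 1.10.0, STAR 2.7.11b and, from Subread, featureCounts 2.0.8, per the submitters' processing notes; which step each served, the annotation and the strand setting are not given. Poly(A) selection is named in the series' design text, removal of ribosomal RNA per the labels' protocols. All columns belonged to the 4 libraries, and 97 rows of spike-in or transgene sequences, at most 4.20e-05% of a library, were left out. Groups and replicate numbers come from the titles.

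Counts were tested with edgeR 4.0.16 in R 4.3.3 (quasi-likelihood F test, TMM scaling, library sizes over all gene rows, filterByExpr with minimum count 10 and minimum total 15, group as the only term), and p-values were Benjamini-Hochberg adjusted over all 18680 genes tested. Standard errors and 95% intervals were derived from the F statistic. The test was checked on simulated counts. Depth was 20873393 to 29161298 counts, and 3 counts, taken as the floor, were worth 0.103 to 0.140 CPM; floors cover counting error only. With libraries scaled by their totals, no pair agreed within counting noise. Variance over counting was then 3.85 times in the control pair and 12.4 times in the LINC01432 LNA pair. TMM factors did not enter these values. They were 1.001 and 1.004 in the control and 1.03 and 0.966 in the LINC01432 LNA libraries. What part of the 12.4 reflects scaling was not tested. Symbols came from a table that held 61481 of the gene IDs, and positions, exon lengths, GC content and exon overlap from GENCODE 29. Named were the 10 surface antigen genes, up to 4 called genes of each list of related genes, and partners or neighbours of a described gene; further called genes of a list were named after their values were seen. LINC01432 was the target check. The genes and lists were chosen with earlier results of these data known. Alternatives were 2 other scalings, 2 other filters, DESeq2 1.42.0, limma-voom (limma 3.58.1), each library left out, the replicate number as a block, GC correction (lowess, span 0.3, as offsets) without and with the block, and an adjusted p under 0.01.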

Additional observations from a re-analysis of the deposited data

How the results depend on the processing

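Of the 10 genes, 2 were called higher and 3 lower. The number higher was 1 with DESeq2 and with an adjusted p under 0.01, and 1 to 2 with a library left out; the gene lost in each case was CD48. The number lower was 2 to 5 with a library left out (2 without either control library, 5 without LINC01432 LNA library 2, when SDC1 and SLAMF7 joined), 4 with GC correction, without and with the replicate block (SDC1 joined), and 2 at an adjusted p under 0.01 (CD28 lost). Where 1 library is left in a group, it is assumed to vary as the other pair does. Without a LINC01432 LNA library that pair is the control pair, which is the closer on library totals (variance 3.85 against 12.4 times counting, without TMM scaling). More genes are then called over all genes, so a call gained there was not taken as a result. CD38, TNFRSF17 and GPRC5D kept direction and call in all 14 alternatives. FCRL5, which was never called, changed sign with a library left out (log2 fold change -0.88 to 0.35, the latter without LINC01432 LNA library 1) and with GC correction (0.021). IRF4, not called, ranged from -0.034 to 0.031 with a library left out, and CD47, not called, had 0.053 with GC correction and 0.052 with GC correction and the replicate block. The causes were not tested.

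Over all genes, 2218 were called. The count was 1466 with DESeq2, 1000 at an adjusted p under 0.01, 766 and 1085 without control library 1 or 2, and 5228 and 4328 without LINC01432 LNA library 1 or 2. Both libraries of 1 group lay beyond both of the other for 6 of the 9 tested surface antigen genes, and for 54.1% of all genes tested. With the replicate number as a block, 3862 genes were called, and the calls of the 10 genes did not change (2 higher, 3 lower). Values under the alternatives were kept for only some of the related genes not called in the main test. Among those, the block called TNFRSF13B (edgeR adjusted p = 0.0370), TNFSF13B (0.0328), HPSE (0.0481), NCSTN (0.0289), PSENEN (0.00347), PTPN6 (0.00866) and F11R (0.00628). The labels give only a shared number: the differences between replicates 1 and 2 correlated between the groups at r = 0.135 over 18680 genes, which are not independent. Genes with few counts (CD27, FCRL5, CD48) are limited by depth.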
